A study of Mus musculus with 36 samples.

Results

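The growth and colony-stimulating factors examined here were Csf1, Csf2, Csf3, Pdgfa, Pdgfb, Hbegf, Vegfa, Fgf2, Igf1 and Inhba. They were taken as the rows with these symbols in the gene annotation of the microglial or astrocyte table, and made up 10 of the 16690 symbols listed in either table. All 10 were listed in both tables and all 10 entered the tests, among 10524 of 15385 genes in microglia and 13842 of 14551 genes in astrocytes.

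Colony-stimulating factors govern the survival, growth and activation of myeloid cells. Csf1 (M-CSF) signals through Csf1r, on which microglia depend for survival, Csf2 (GM-CSF) drives granulocytes and macrophages, and Csf3 (G-CSF) drives neutrophil production. The platelet-derived growth factors Pdgfa and Pdgfb act on oligodendrocyte precursors, fibroblasts and mural cells, and the remaining members signal to epithelial, endothelial, neural and glial cells through receptor tyrosine kinases or, for Inhba, through activin receptors.

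RNA sequencing was performed on primary microglia and astrocytes of C57BL/6 mice, to examine which transcriptional responses depended on the kinase activity of RIPK1, a kinase downstream of the TNF receptor. Brains of pups aged 2 to 4 days were pooled and grown as mixed glia for 12 days, after which microglia were selected by CD11b and astrocytes were selected from what the microglial selection left behind. Cells were exposed for 4 h to vehicle (DMSO), to the RIPK1 kinase inhibitor Nec-1s (N), or to TNF (T) in 2 combinations: T/5z, which added 5z-7, a TAK1 inhibitor, and T/S/Z, which added Smac mimetic and the caspase inhibitor zVAD. Each stimulus was given alone or with Nec-1s, as T/5z/N or as T/S/Z/N. Microglia received all 6 treatments with 4 libraries each, and astrocytes received DMSO, Nec-1s, T/S/Z and T/S/Z/N with 3 libraries each. None of the groups carried a transgene or deletion according to the labels. Microglial libraries were made by Genewiz and astrocyte libraries by BGI with a strand-specific protocol, so cell type and provider cannot be told apart and no test was made between the cell types. The labels do not say whether libraries of a group came from separate cultures. The study's methods describe its replicates as biological, for cultured cells as preparations of different litters. The p-values measure the spread between these libraries.

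Values are log2(FPKM + 1), where FPKM is fragments scaled to exon length and library size, and a log2 change is a difference on that scale. A gene was called when its fold change exceeded 1.5 and its limma adjusted p over all tested genes was under 0.05, with the replicate number as a block. In the microglial table, replicates 1 to 3 had been shifted gene by gene to the mean of replicate 4, which leaves differences within a replicate as they were but makes the absolute level of replicates 1 to 3 that of replicate 4 and turns some low values negative. A read on 1 kb of exon was worth 0.0394 to 0.0546 FPKM in the microglial libraries of replicate 4 and 0.0447 to 0.0471 FPKM in astrocytes. In the astrocyte table no value was 0 and the lowest values lay at the worth of 1 read, so a value at 1 read may stand for none. The cells carried the RNA of their label: 12 microglial markers summed to 8510 to 10524 FPKM in microglial libraries, and 10 astrocyte markers summed to 3117 to 3683 FPKM in astrocyte libraries. In bulk RNA, fewer cells of a type and less RNA per cell cannot be told apart.

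The levels in DMSO are given for each cell type in turn, side by side and without a test between them. For microglia only replicate 4 has a level of its own, since the other replicates were shifted to it, so the order below has no spread. In its DMSO library, Igf1, an insulin-like ligand supporting neurons and oligodendrocytes, was the most abundant member at 375 FPKM. Pdgfb followed at 24.5 FPKM and Pdgfa at 16.5 FPKM. Vegfa, the endothelial growth and permeability factor, stood at 6.12 FPKM and Hbegf, a membrane-bound ligand of the EGF receptor that is released by shedding, at 3.31 FPKM. Csf1 lay at 2.33 FPKM, Inhba, the activin A subunit, at 1.71 FPKM, and Fgf2, a heparin-binding mitogen, at 1.15 FPKM. Csf2 and Csf3 were listed at 0 in that library.

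In DMSO astrocytes Hbegf had the highest mean at 192 FPKM and Csf1 the next at 88.1 FPKM. Fgf2 (32.7 FPKM), Vegfa (32.4 FPKM) and Pdgfa (28.0 FPKM) overlapped across the 3 libraries, as did Igf1 (10.5 FPKM) and Pdgfb (10.3 FPKM), and Inhba lay at 7.61 FPKM. Csf2 lay at about 1, 3 and 1 reads and Csf3 at about 1, 2 and 1 reads in the 3 DMSO libraries, at or near the lowest value the table can hold. The plots of the values in each library show the members by treatment for both cell types.

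**Figure D1:**
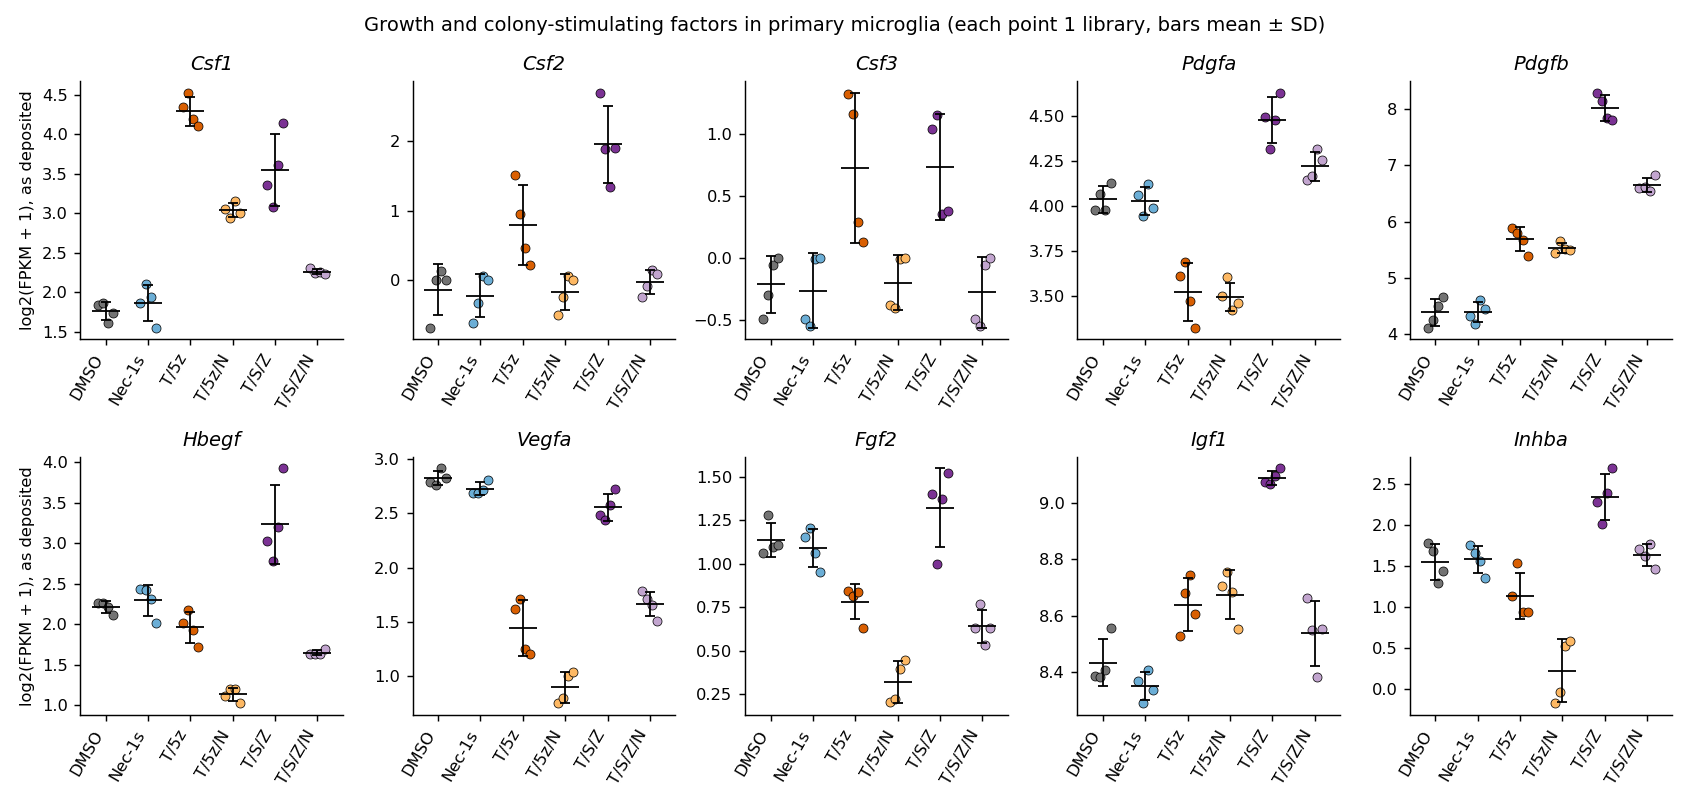
Value of each factor in every microglial library, as log2(FPKM + 1) on the y axis with a separate scale for each gene, by treatment on the x axis. Points are the 4 libraries of a treatment and bars the mean ± SD. Csf1 sits between 4.11 and 4.53 with T/5z against 1.61 to 1.87 in DMSO, and Pdgfb between 7.81 and 8.28 with T/S/Z against 4.12 to 4.67 in DMSO.

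**Figure D2:**
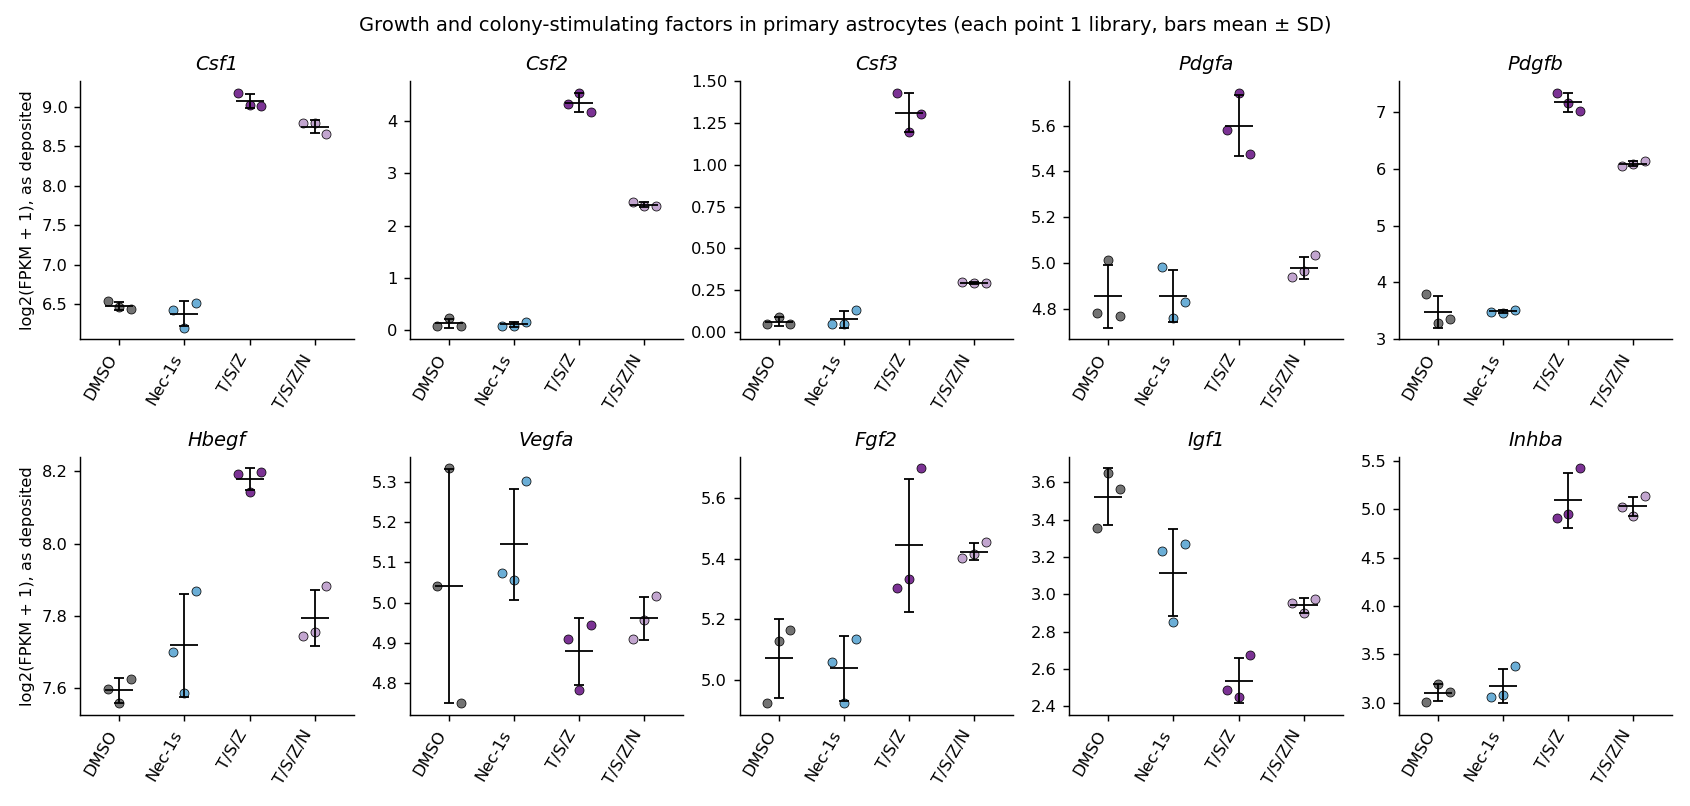
Value of each factor in every astrocyte library, as log2(FPKM + 1) on the y axis with a separate scale for each gene, by treatment on the x axis. Points are the 3 libraries of a treatment and bars the mean ± SD. Csf2 lies between 0.078 and 0.23 in DMSO, between 4.18 and 4.54 with T/S/Z and between 2.37 and 2.46 with T/S/Z/N.

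Promoter sequence was examined because several members moved together. RefSeq (GRCm38.p6) windows from 250 bases before to 50 after an annotated start were matched by symbol for 7 of the 10 members, with 9 windows in all. The NF-kB consensus and the AP-1 motif (TGANTCA) were searched on both strands. The NF-kB consensus was present in 8.46% and AP-1 in 7.81% of 32851 windows of the same length. Among the members, the NF-kB consensus was found in a window of Csf1, of Pdgfa and of Vegfa and AP-1 in that of Igf1, and no NF-kB and AP-1 match overlapped. No window of Csf2, Fgf2 or Inhba held either set of letters. The window of Csf2 starts beyond the gene end given in the deposited annotation (54249667). The 250 bases before the start of the windows with a match are shown, since they belong to members whose values moved in different directions below. Capitals mark the NF-kB consensus in Csf1, Pdgfa and Vegfa and AP-1 in Igf1.
Csf1 (chr3:107760470-107760719, minus strand): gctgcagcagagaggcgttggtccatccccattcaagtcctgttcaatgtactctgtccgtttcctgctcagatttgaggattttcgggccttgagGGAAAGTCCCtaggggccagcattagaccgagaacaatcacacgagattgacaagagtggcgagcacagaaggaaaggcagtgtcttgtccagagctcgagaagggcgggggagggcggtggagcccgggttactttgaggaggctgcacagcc
Pdgfa (chr5:138994945-138995194, minus strand): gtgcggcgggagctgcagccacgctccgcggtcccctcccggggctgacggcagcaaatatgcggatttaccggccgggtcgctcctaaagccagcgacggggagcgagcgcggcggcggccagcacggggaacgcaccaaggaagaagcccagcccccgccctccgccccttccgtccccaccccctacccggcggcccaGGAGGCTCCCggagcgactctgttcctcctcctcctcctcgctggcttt
Vegfa (chr17:46032378-46032627, minus strand): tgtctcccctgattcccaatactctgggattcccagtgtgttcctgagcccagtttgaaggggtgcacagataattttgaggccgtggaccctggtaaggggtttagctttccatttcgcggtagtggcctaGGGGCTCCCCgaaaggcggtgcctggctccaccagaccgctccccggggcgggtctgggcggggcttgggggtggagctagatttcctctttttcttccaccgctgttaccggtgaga
Igf1 (chr10:87860861-87861110, plus strand): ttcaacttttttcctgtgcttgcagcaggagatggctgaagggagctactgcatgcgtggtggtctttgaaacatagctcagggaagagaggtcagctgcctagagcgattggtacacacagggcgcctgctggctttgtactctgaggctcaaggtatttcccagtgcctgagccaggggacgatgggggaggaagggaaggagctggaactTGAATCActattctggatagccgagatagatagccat
Counted from the start site, the first base of the match was at -154 in Csf1, -49 in Pdgfa, -118 in Vegfa and -37 in Igf1. A match describes letters in this window and not a bound site.

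T/5z was compared with DMSO in microglia to ask what TNF with TAK1 inhibition changed. All 3 colony-stimulating factors and Pdgfb rose and Vegfa fell. Of the 10 members 5 were called, 4 higher and 1 lower, where 24.4% of all tested genes were called, 11.1% higher and 13.3% lower. The median log2 change was -0.021 over the members, with a sign that turned under other settings (0.045 with 5 added before the log, 0.030 without replicate 4), and -0.058 over all tested genes.

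Csf1 (ENSMUSG00000014599, chromosome 3, 107741048 to 107760469) had the largest response to T/5z among the members. Its values in replicates 1 to 4 were 1.85, 1.87, 1.61 and 1.74 in DMSO and 4.35, 4.53, 4.19 and 4.11 with T/5z. The groups did not overlap, and Csf1 rose by 2.53 (SE 0.066, adjusted p 5.48e-07), a 5.77-fold change in FPKM + 1, in 4 of 4 replicates.

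Csf2 (ENSMUSG00000018916, chromosome 11, 54247271 to 54249667) rose less evenly. Its values were -0.68, 0.010, 0.13 and 0.00 in DMSO and 1.52, 0.96, 0.47 and 0.21 with T/5z. Each T/5z library lay above its DMSO partner, but the difference ranged from 2.20 in replicate 1 to 0.21 in replicate 4, where it amounted to about 3 reads. The mean change was 0.93 (SE 0.32, adjusted p 0.0365), and the call was lost without replicate 1 (change 0.50, adjusted p 0.0573), without replicate 2 (adjusted p 0.0864) and with no filter on low values (adjusted p 0.0575).

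Csf3 (ENSMUSG00000038067, chromosome 11, 98701263 to 98703629) had the same unevenness. Its values were -0.49, -0.30, -0.060 and 0.00 in DMSO and 1.32, 1.16, 0.29 and 0.13 with T/5z, the last being about 3 reads. Csf3 rose by 0.94 (SE 0.29, adjusted p 0.0256) in 4 of 4 replicates without overlap, and the call was lost without replicate 1 (adjusted p 0.0819) or replicate 2 (adjusted p 0.0921). Csf2 and Csf3 entered the microglial tests through their stimulated libraries alone, and the size of their changes depends on the 1 added before the log, so no fold against their near-zero DMSO values is given. With 5 added in place of 1, which shrinks the changes of low genes, the T/5z rises were 0.24 for Csf2 and 0.23 for Csf3, both under the fold minimum.

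Pdgfb (ENSMUSG00000000489, chromosome 15, 79995874 to 80014808) went from 4.12, 4.26, 4.50 and 4.67 in DMSO to 5.89, 5.80, 5.67 and 5.40 with T/5z. The groups were apart, with a rise of 1.30 (SE 0.16, adjusted p 0.000344). Vegfa (ENSMUSG00000023951, chromosome 17, 46016993 to 46032369) went the other way, from 2.79, 2.77, 2.91 and 2.83 to 1.62, 1.71, 1.26 and 1.20. It fell by 1.38 (SE 0.12, adjusted p 6.91e-05), a 2.60-fold drop in FPKM + 1, again without overlap.

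The other 5 members did not reach the fold minimum with T/5z. Pdgfa changed by -0.51 (SE 0.083), Inhba by -0.41 (SE 0.10), Fgf2 by -0.35 (SE 0.096), Hbegf by -0.25 (SE 0.076) and Igf1 by 0.21 (SE 0.060). Their adjusted p lay between 0.00136 and 0.0239, so the differences were small rather than unmeasured, and for Hbegf, Igf1 and Inhba the groups overlapped.

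T/S/Z raised 7 of the 10 members in microglia and called none lower, where 29.6% of all tested genes were called, 12.2% higher and 17.5% lower. The members that rose were the 3 colony-stimulating factors, Pdgfb, Hbegf, Inhba and Igf1. Csf2 and Csf3 entered this count through their stimulated libraries alone, as stated above. The median log2 change was 0.87 over the members and -0.085 over all tested genes.

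Pdgfb had the largest change of any member in microglia. Its T/S/Z values were 8.28, 8.14, 7.83 and 7.81 against 4.12 to 4.67 in DMSO, a rise of 3.63 (SE 0.16, adjusted p 9.42e-07), or 12.4-fold in FPKM + 1. In replicate 4 this was a level of 223 FPKM, second among the members to the 557 FPKM of Igf1. Csf2 reached 2.70, 1.88, 1.34 and 1.90, above every DMSO library, and rose by 2.09 (SE 0.30, adjusted p 0.000436), or by 0.70 with 5 added, where it was still called. In replicate 4, Csf2 went from no read to about 46 reads.

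Csf1 stood at 3.35, 3.09, 3.62 and 4.14 with T/S/Z and rose by 1.79 (SE 0.18, adjusted p 6.28e-05). Csf3 stood at 1.04, 1.15, 0.35 and 0.38, the last about 9 reads, and rose by 0.94 (SE 0.22, adjusted p 0.0056). All T/S/Z libraries of both genes lay above all DMSO libraries, and with 5 added the rise of Csf3 was 0.23 and not called.

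Hbegf (ENSMUSG00000024486, chromosome 18) went from 2.26, 2.26, 2.21 and 2.11 in DMSO to 3.03, 2.79, 3.20 and 3.92 with T/S/Z. It rose by 1.02 (SE 0.19, adjusted p 0.00156), with differences from 0.53 in replicate 2 to 1.81 in replicate 4. Inhba (ENSMUSG00000041324, chromosome 13, 16011851 to 16031621) went from 1.78, 1.69, 1.30 and 1.44 to 2.28, 2.02, 2.39 and 2.69, a rise of 0.79 (SE 0.16, adjusted p 0.00243). In both genes every T/S/Z library was above every DMSO library, and with 5 added the rise of Inhba was 0.39 and not called.

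Igf1 (ENSMUSG00000020053, chromosome 10, 87858265 to 87937042) had a small rise and a narrow spread. Its values were 8.38, 8.38, 8.41 and 8.56 in DMSO and 9.07, 9.07, 9.09 and 9.12 with T/S/Z. Igf1 rose by 0.66 (SE 0.044, adjusted p 7.93e-06), but after quantile normalization the change was 0.24 and under the fold minimum. Pdgfa changed by 0.44 (SE 0.066), Vegfa by -0.27 (SE 0.071) and Fgf2 by 0.19 (SE 0.13, adjusted p 0.219), none of them past the fold minimum.

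Markers of astrocytes moved with the stimuli in the same microglial libraries. The study reported that both stimuli killed cultured microglia, less so with Nec-1s present. It reported no loss of astrocyte viability that depended on RIPK1 kinase. The part of cell death in the microglial changes was not tested. The summed level of the 10 astrocyte markers ran from 9.64 to 11.5 FPKM in DMSO, from 15.6 to 27.8 FPKM with T/5z and from 16.9 to 26.2 FPKM with T/S/Z. With Nec-1s added it ran from 11.1 to 11.3 FPKM after T/5z and from 6.73 to 7.96 FPKM after T/S/Z. Of 7 tested markers 5 (Gfap, Aqp4, Slc1a3, Gja1 and Atp1b2) were called higher with each stimulus and lower with Nec-1s added, and Slc1a2, S100b and Sox9 stayed under a log2 value of 1 in every library. Of 5 tested fibroblast and mural markers, T/5z called 4 higher and 1 lower (Cspg4) and T/S/Z called 1 higher (Cspg4). Adding Nec-1s called 2 of the 5 lower after T/5z and 1 lower after T/S/Z, and none higher. Of 3 tested oligodendrocyte lineage markers (Olig1, Cspg4 and Mbp), T/S/Z called Olig1 and Cspg4 higher, and Nec-1s then called both lower and Mbp higher. With T/5z, Olig1 was called higher and Cspg4 lower, and Nec-1s then called Olig1 lower. The summed level of the 7 listed ran from 30.9 to 32.9 FPKM in DMSO, from 25.8 to 29.2 FPKM with T/5z, from 27.8 to 37.5 FPKM with T/S/Z, from 27.0 to 31.0 FPKM with T/5z/N and from 31.9 to 32.5 FPKM with T/S/Z/N.

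Set against the astrocyte table, the members differed in how far they stood above that marker level. In T/S/Z, the replicate 4 microglial level of the 10 astrocyte markers was 0.423% to 3.67% of their mean level in T/S/Z astrocytes. The same share was 3.10% for Csf1, 4.36% for Fgf2 and 4.91% for Hbegf, at or a little above the upper end of the markers. It was 13.9% for Csf2, 16.2% for Inhba, 19.8% for Vegfa, 20.3% for Csf3, 49.9% for Pdgfa and 155% for Pdgfb, each over 3 times the highest marker. The share of Csf3 rests on about 9 reads and that of Csf2 on about 46 in replicate 4, so none of these shares has a spread. The part of astrocyte, fibroblast, mural or oligodendrocyte lineage RNA in the microglial changes was not tested.

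**Figure D3:**
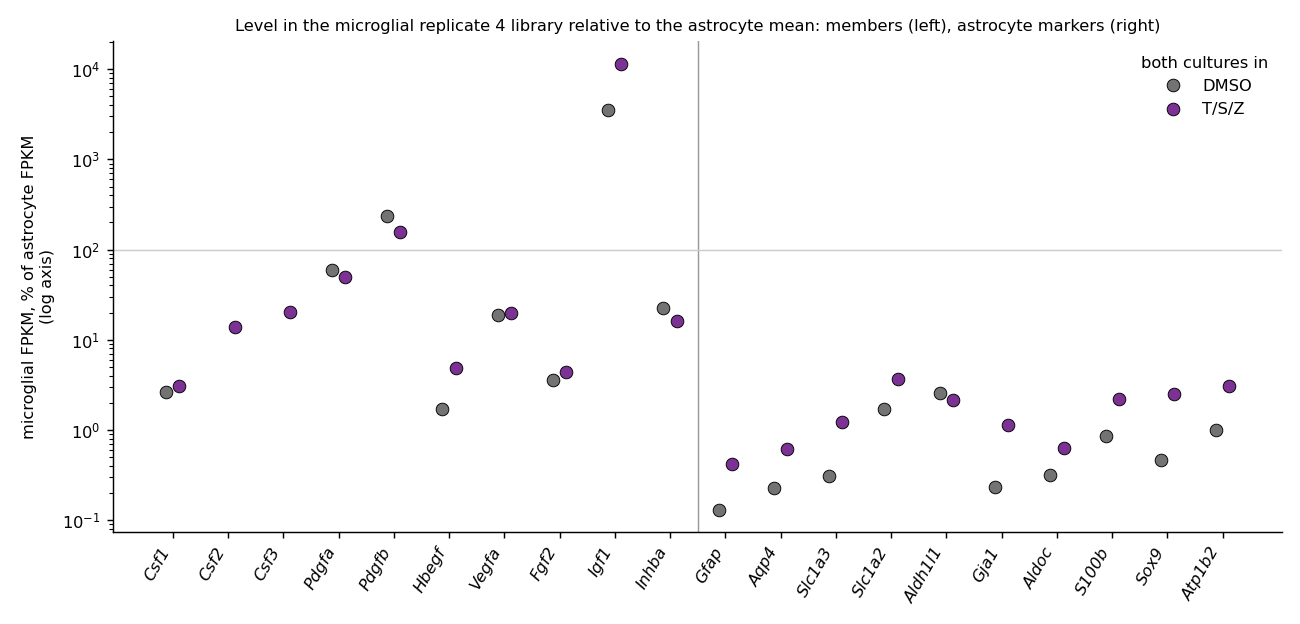
FPKM in the microglial library of replicate 4 as a percentage of the mean FPKM of the 3 astrocyte libraries with the same treatment (y axis, log scale), for the 10 factors (left) and 10 astrocyte markers (right), in DMSO (grey) and T/S/Z (purple). Csf2 and Csf3 in DMSO are at 0 in microglia and are not drawn. In T/S/Z the markers reach 3.67%, Csf1 lies at 3.10% and Pdgfb at 155%. The tables were normalized separately, so the levels are set side by side without a test.

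T/S/Z and T/5z were compared directly to ask where the stimuli differed. Of the 10 members 7 were called, 6 higher with T/S/Z and 1 lower, where 9.83% of all tested genes were called, 5.42% higher and 4.42% lower. Pdgfb was higher with T/S/Z by 2.33 (SE 0.055, adjusted p 1.74e-06), Hbegf by 1.27 (SE 0.23, adjusted p 0.0044), Inhba by 1.21 (SE 0.19, adjusted p 0.00248), Csf2 by 1.16 (SE 0.14, adjusted p 0.000749), Vegfa by 1.11 (SE 0.14, adjusted p 0.000838) and Pdgfa by 0.96 (SE 0.10, adjusted p 0.000454). Each of these 6 was higher in 4 of 4 replicates, and the groups were apart except for Csf2. Csf1 was lower with T/S/Z by 0.74 (SE 0.21, adjusted p 0.0268), in 3 of 4 replicates with overlapping groups. That call was lost without replicate 1 (adjusted p 0.0877), 2 (0.0696) or 3 (0.07), and with no filter on low values (0.0556). With 5 added the calls of Csf1 (-0.58), Csf2 (0.46), Vegfa (0.55) and Inhba (0.55) were lost, all under the fold minimum. Fgf2, at 0.54, was called without replicate 2 (0.66) and after quantile normalization (0.70). None of the 7 tested astrocyte markers was called between the stimuli (limma), and their median change was -0.0099. Of the 5 tested fibroblast and mural markers, 1 was called higher with T/S/Z and 3 lower, with a median of -0.85, beside the lower Csf1, and their part in it was not tested.

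Nec-1s was added to ask which of these changes needed RIPK1 kinase activity. With T/5z, 5 members fell and none rose, where 7.16% of all tested genes were called, 2.64% higher and 4.52% lower. The median change was -0.69 over the members and 0.044 over all tested genes. The members that fell were Csf1, Csf2, Csf3, Hbegf and Inhba. Csf2 and Csf3 passed the filter only through T/5z and T/S/Z libraries, and Inhba without any T/5z/N library, which favours a fall here. Nothing is therefore read from this count against those shares.

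Csf1 was lowered but not returned to its DMSO level. Its T/5z/N values were 3.05, 2.94, 3.16 and 3.00, below every T/5z and above every DMSO library, with a fall of 1.25 (SE 0.086, adjusted p 1.84e-05) and a remaining rise over DMSO of 1.27 (SE 0.088, adjusted p 1.29e-05). Nec-1s took back 40.0% to 59.5% of the Csf1 response in the 4 replicates. Csf2 fell by 0.96 (SE 0.27, adjusted p 0.0187) and Csf3 by 0.92 (SE 0.27, adjusted p 0.0222), and both were listed at 0 in replicate 4 of T/5z/N. Both calls were lost without replicate 2 (adjusted p 0.0574 and 0.0801), and that of Csf3 also without replicate 1 (0.079). With 5 added both falls were under the fold minimum (-0.24 and -0.23).

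Hbegf and Inhba fell with Nec-1s although T/5z alone had not raised them. Hbegf lay at 2.02, 2.18, 1.93 and 1.72 with T/5z and at 1.11, 1.19, 1.20 and 1.02 with T/5z/N, a fall of 0.83 (SE 0.083, adjusted p 0.000122), which left it 1.08 under DMSO (SE 0.074, adjusted p 1.22e-05). Inhba lay at 1.13, 1.54, 0.94 and 0.94 with T/5z and at -0.17, -0.040, 0.52 and 0.58 with T/5z/N, a fall of 0.91 (SE 0.21, adjusted p 0.00749), and was 1.33 under DMSO (SE 0.20, adjusted p 0.00105). The groups were apart in both genes. With 5 added neither fall reached the fold minimum (-0.35 for Hbegf and -0.26 for Inhba), nor did their differences from DMSO (-0.48 and -0.42).

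Pdgfb, by contrast, was not detectably changed by Nec-1s after T/5z. Its T/5z/N values were 5.44, 5.65, 5.52 and 5.49, a change of -0.16 (95% interval -0.34 to 0.014, adjusted p 0.114), and it stayed 1.14 above DMSO (SE 0.094, adjusted p 3.54e-05). Vegfa went to 0.75, 0.80, 1.00 and 1.04, a further change of -0.55 (SE 0.14, adjusted p 0.0136) that did not reach the fold minimum, but did without replicate 3 (-0.65) or 4 (-0.68). Against DMSO, T/5z/N had 2 members higher (Csf1 and Pdgfb) and 4 lower (Vegfa, Inhba, Hbegf and Fgf2), where 12.8% of all tested genes were called, 6.16% higher and 6.69% lower. Fgf2 passed the filter only through DMSO, Nec-1s and T/S/Z, and Inhba without any T/5z/N library. This favours a lower call in both, so nothing is read from the lower count against its share. Vegfa was 1.93 lower than in DMSO (SE 0.076, adjusted p 9.13e-07) and Fgf2 was 0.82 lower (SE 0.10, adjusted p 0.000331), a call lost with 5 added (-0.24).

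With T/S/Z, Nec-1s lowered 8 of the 10 members and raised none, where 12.1% of all tested genes were called, 5.35% higher and 6.72% lower. Csf2 and Csf3 passed the filter only through T/5z and T/S/Z, and Fgf2 only through DMSO, Nec-1s and T/S/Z. This favours a fall in these members, so nothing is read from the count against those shares. The median change was -0.95 over the members and 0.059 over all tested genes. Pdgfa changed by -0.26 (SE 0.056) and Igf1 by -0.55 (SE 0.064, adjusted p 0.000281), both lower in 4 of 4 replicates and short of the fold minimum, which Igf1 passed without replicate 1 (-0.60).

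Csf2 was brought close to its DMSO level. Its T/S/Z/N values were -0.23, -0.083, 0.14 and 0.087, against 1.34 to 2.70 with T/S/Z, a fall of 1.98 (SE 0.24, adjusted p 0.00033) that brought replicate 4 to about 1 read. With 5 added the fall of Csf2 was 0.68, smaller than those of Pdgfb (1.33), Hbegf (0.92) and Csf1 (0.85) at that setting. Csf3 fell by 1.01 (SE 0.24, adjusted p 0.00812), to 0 in replicate 4, and with 5 added its change was -0.24 and not called. Csf1 came to 2.31, 2.25, 2.26 and 2.23, a fall of 1.29 (SE 0.15, adjusted p 0.000328), and its remaining difference from DMSO of 0.50 (SE 0.076, adjusted p 0.00139) was under the fold minimum, which it passed after quantile normalization (0.59).

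Pdgfb was lowered without losing most of its rise. Its T/S/Z/N values were 6.59, 6.62, 6.54 and 6.83, a fall of 1.37 (SE 0.11, adjusted p 4.64e-05) that left it 2.26 above DMSO (SE 0.078, adjusted p 1.08e-06). Nec-1s took back 31.0% to 40.6% of the Pdgfb response, against 67.6% to 79.4% of the Csf1 response and 86.7% to 105% of the Csf2 response. These shares were not tested against each other.

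Hbegf was brought below its DMSO level in every replicate. Its T/S/Z/N values were 1.63, 1.64, 1.63 and 1.69, a fall of 1.59 from T/S/Z (SE 0.15, adjusted p 0.00013), and 0.56 under DMSO (SE 0.075, adjusted p 0.000688), which is short of the fold minimum and passed it without replicate 4 (-0.61). Inhba fell by 0.71 (SE 0.13, adjusted p 0.00234), a call lost without replicate 4 (change -0.53). Vegfa fell by 0.89 (SE 0.094, adjusted p 0.000184) and Fgf2 by 0.68 (SE 0.12, adjusted p 0.00217), which left Vegfa 1.16 under DMSO (SE 0.081, adjusted p 2.48e-05). With 5 added the falls from T/S/Z were under the fold minimum for Inhba (-0.36), Vegfa (-0.46) and Fgf2 (-0.23). Against DMSO, T/S/Z/N had 1 member higher (Pdgfb) and 1 lower (Vegfa), where 14.1% of all tested genes were called, 6.2% higher and 7.87% lower.

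**Figure D4:**
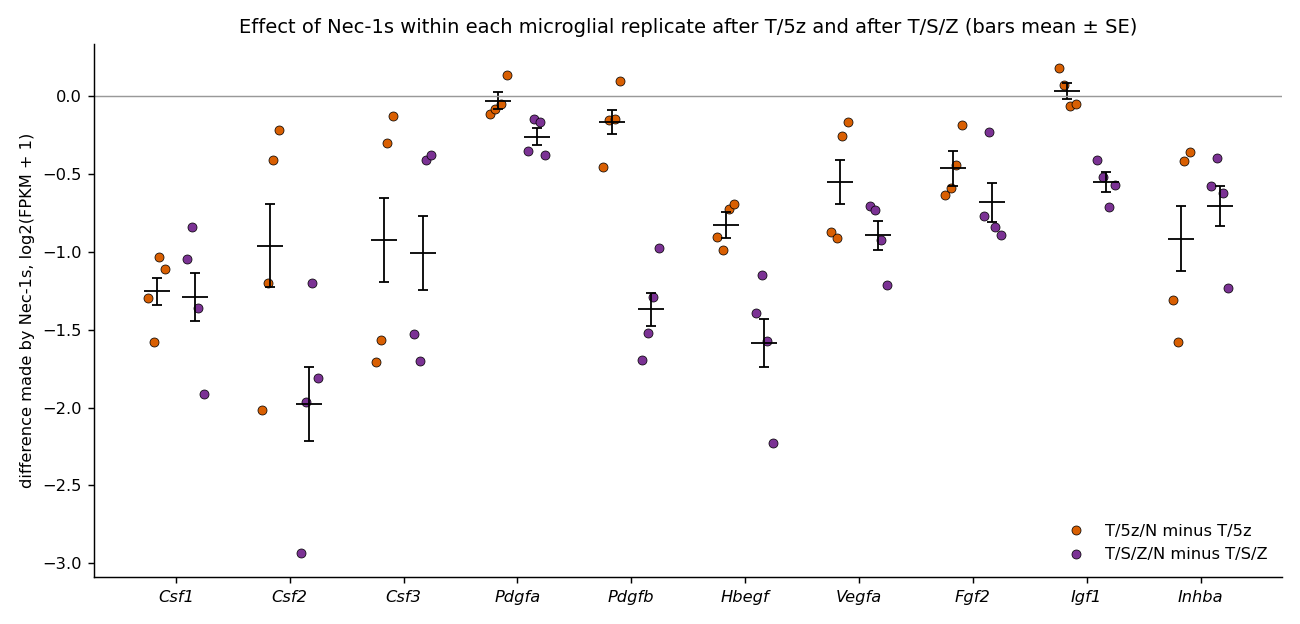
Difference that Nec-1s made within each microglial replicate (y axis, log2(FPKM + 1) with Nec-1s minus without) for the 10 factors, after T/5z (orange) and after T/S/Z (purple). Points are the 4 replicates and bars the mean ± SE. Pdgfb lies between -0.46 and 0.098 after T/5z and between -1.69 and -0.97 after T/S/Z.

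By these calls, members raised by a stimulus and lowered by Nec-1s were Csf1, Csf2 and Csf3 when the stimulus was T/5z and Csf1, Csf2, Csf3, Pdgfb, Hbegf and Inhba when the stimulus was T/S/Z. The same criteria were met by 3.76% of all tested genes with T/5z and by 4.95% with T/S/Z. Csf2 and Csf3 passed the filter only through T/5z and T/S/Z libraries, which favours this pattern, so nothing is read from these counts against those shares. No member was lowered by a stimulus and raised by Nec-1s, a pattern of 2.32% of all tested genes under T/5z, against 4.33% under T/S/Z. Csf1 and Pdgfb were raised by T/5z and still called higher than DMSO with Nec-1s, as 5.69% of all tested genes were. For T/S/Z this held for Pdgfb (5.32% of all tested genes) and, after quantile normalization, for Csf1 as well. Vegfa was lowered by T/5z and still called lower with Nec-1s (5.89% of all tested genes), and no member was for T/S/Z (6.21%). With 5 added, the members raised by a stimulus and lowered by Nec-1s were Csf1 for T/5z and Csf1, Csf2, Pdgfb and Hbegf for T/S/Z. These comparisons share their DMSO and stimulus libraries.

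Whether Nec-1s acted differently after T/S/Z than after T/5z was tested as an interaction over the 4 stimulated groups. Of the 10 members 3 were called, all with a more negative Nec-1s change after T/S/Z, where 6.47% of all tested genes were called, 3.77% in that direction and 2.7% in the other. After T/5z, Nec-1s changed Igf1 by 0.035 and Pdgfb by -0.16, neither called. The difference was 1.20 for Pdgfb (SE 0.15, adjusted p 5.34e-05), 0.76 for Hbegf (SE 0.25, adjusted p 0.0404) and 0.59 for Igf1 (SE 0.092, adjusted p 0.000393), each in 4 of 4 replicates. The Hbegf difference was not called without replicate 1 (adjusted p 0.0915), without replicate 3 (0.15), without replicate 4 (0.50, under the fold minimum) or with no filter on low values (0.0703). The Igf1 difference was not called without replicate 3 (0.57) or after quantile normalization (0.41), where it fell short of the fold minimum. With 5 added both were under the fold minimum (0.57 for Hbegf and 0.58 for Igf1). The difference for Csf2 was 1.02 (SE 0.38, adjusted p 0.0663), with a 95% interval from 0.19 to 1.84, and was called without replicate 1 (1.05, adjusted p 0.0298) and after quantile normalization (1.18, adjusted p 0.024).

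Nec-1s alone called 0 members in microglia (limma), none at an unadjusted p under 0.05, and 0% of all tested genes. Their changes lay between -0.097 for Vegfa and 0.10 for Csf1. In astrocytes Nec-1s alone also called 0 members (limma), where 0.0144% of all tested genes were called. Igf1 was the 1 member with an unadjusted p under 0.05 there, at -0.41 (SE 0.13, adjusted p 0.85), lower in 3 of 3 replicates.

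**Figure D5:**
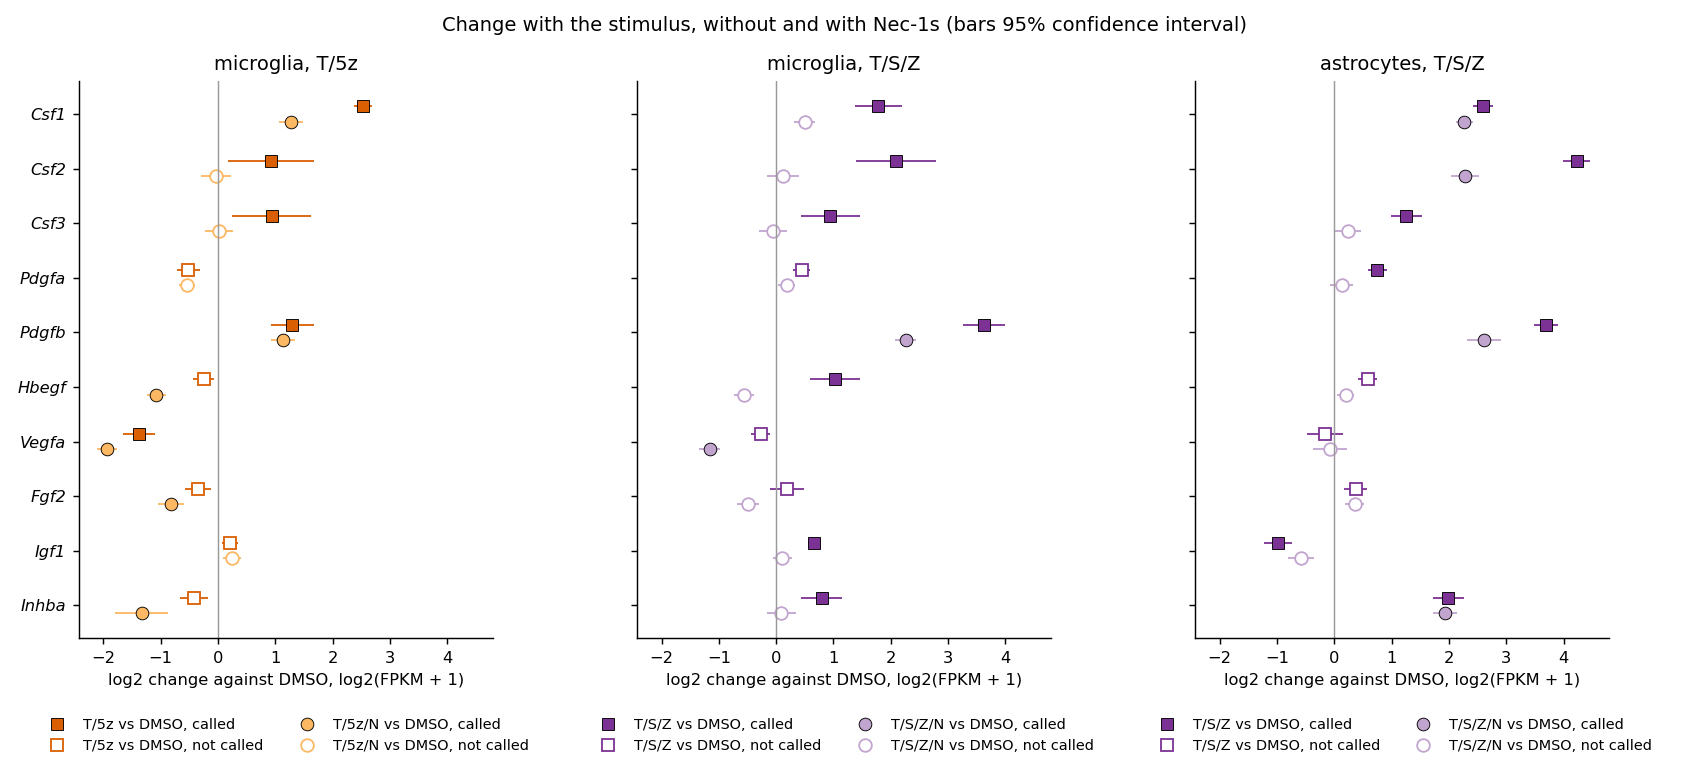
Log2 change of each factor against DMSO with the stimulus (squares) and with the stimulus and Nec-1s (circles), in microglia with T/5z (left), microglia with T/S/Z (middle) and astrocytes with T/S/Z (right). The x axis is the difference in log2(FPKM + 1), bars are 95% confidence intervals, and filled symbols are called changes. Csf1 in astrocytes is at 2.59 with T/S/Z and 2.27 with T/S/Z/N, while Csf1 in microglia is at 1.79 and 0.50.

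T/S/Z was compared with DMSO in astrocytes, which received this stimulus and not T/5z. The 3 colony-stimulating factors, both platelet-derived growth factors and Inhba rose, and Igf1 fell. Of the 10 members 7 were called, 6 higher and 1 lower, where 15.4% of all tested genes were called, 6.39% higher and 8.99% lower. The median log2 change was 1.00 over the members and -0.11 over all tested genes. Csf3 passed the filter on low values only through T/S/Z and Csf2 only through T/S/Z and T/S/Z/N, so both entered these counts because they were high there.

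Csf2 went from near 0 reads to a clear signal in astrocytes. Its values were 0.080, 0.23 and 0.078 in DMSO and 4.34, 4.54 and 4.18 with T/S/Z, or about 338, 380 and 296 reads. The rise was 4.23 (SE 0.10, adjusted p 3.92e-07) on the log2(FPKM + 1) scale, and no fold is given against the 1 to 3 reads of DMSO. With 5 added the rise was 2.26, under those of Pdgfb (3.29) and Csf1 (2.54) at that setting. Csf3 went from 0.046, 0.090 and 0.045 to 1.43, 1.20 and 1.31, or about 53, 39 and 45 reads, and rose by 1.25 (SE 0.11, adjusted p 0.000231), or by 0.36 with 5 added, where it was not called.

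Pdgfb went from 3.80, 3.29 and 3.36 to 7.34, 7.16 and 7.01, a rise of 3.69 (SE 0.086, adjusted p 3.5e-07) and 12.9-fold in FPKM + 1. Csf1 went from 6.54, 6.46 and 6.44 to 9.18, 9.02 and 9.01, a rise of 2.59 (SE 0.071, adjusted p 7.95e-07). At a mean of 538 FPKM, Csf1 was then the most abundant member in astrocytes, ahead of Hbegf at 289 FPKM. Their T/S/Z log2 values did not overlap.

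Inhba went from 3.01, 3.19 and 3.11 to 4.91, 4.95 and 5.42, a rise of 1.99 (SE 0.12, adjusted p 2.79e-05). Pdgfa (ENSMUSG00000025856, chromosome 5, 138976014 to 138997370) went from 4.78, 5.01 and 4.77 to 5.58, 5.74 and 5.48, a rise of 0.75 (SE 0.070, adjusted p 0.00027). The groups were apart in both genes. Hbegf changed by 0.58 (SE 0.071, adjusted p 0.000857), just under the fold minimum, with 3 of 3 replicates higher, and passed it without replicate 3. Fgf2 (ENSMUSG00000037225, chromosome 3, 37348346 to 37410108) changed by 0.37 (SE 0.085, adjusted p 0.0127). Vegfa changed by -0.16 (SE 0.13, 95% interval -0.48 to 0.15) with overlapping groups.

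Igf1 was the 1 member that fell. Its values were 3.36, 3.65 and 3.56 in DMSO and 2.49, 2.45 and 2.68 with T/S/Z, a fall of 0.98 (SE 0.10, adjusted p 0.000476) without overlap. Markers of microglia moved the same way in these libraries: their summed level ran from 104 to 111 FPKM in DMSO, from 64.1 to 67.8 FPKM with T/S/Z and from 91.2 to 101 FPKM with T/S/Z/N. Of 11 tested microglial markers 6 were called lower with T/S/Z and 3 higher with Nec-1s added. Igf1 in DMSO astrocytes was 2.81% of its level in the DMSO microglial library of replicate 4, where the 12 microglial markers were at 0.32% to 54.2%. Fibroblast and mural markers summed to 608 to 622 FPKM in DMSO, 115 to 127 FPKM with T/S/Z and 490 to 492 FPKM with T/S/Z/N. Oligodendrocyte lineage markers summed to 95.1 to 112 FPKM in DMSO, 58.1 to 84.9 FPKM with T/S/Z and 64.7 to 69.1 FPKM with T/S/Z/N, and 1 of 6 tested was called lower with T/S/Z. The part of these cells in the astrocyte changes was not tested.

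Nec-1s lowered 4 of the 10 members in T/S/Z astrocytes and raised none, where 3.1% of all tested genes were called, 1.51% higher and 1.59% lower. The median change was -0.36 over the members and 0.028 over all tested genes. Those that fell were Csf2, Csf3, Pdgfb and Pdgfa. All 4 had also been raised by T/S/Z, a combination met by 1.42% of all tested genes, and with 5 added it held for Csf2 and Pdgfb. Csf3 passed the filter only through T/S/Z and Csf2 only through T/S/Z and T/S/Z/N, which favours this pattern. Nothing is therefore read from these counts against those shares. No member was lowered by T/S/Z and called higher with Nec-1s added (1.12% of all tested genes), nor lowered and still called lower than DMSO with it (3.66%).

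Csf2 came to 2.46, 2.37 and 2.38, or about 78, 74 and 75 reads, a fall of 1.95 (SE 0.11, adjusted p 0.000174). It remained 2.27 above DMSO (SE 0.10, adjusted p 6.27e-05), between both sets of libraries. Csf3 came to about 7 reads in each library, a fall of 1.02 (SE 0.10, adjusted p 0.00203) that was not called with 5 added (-0.31), and its difference from DMSO of 0.23 (adjusted p 0.123) was not called. Pdgfb came to 6.05, 6.09 and 6.14, a fall of 1.08 (SE 0.10, adjusted p 0.00166) that left it 2.61 above DMSO (SE 0.12, adjusted p 7.03e-05).

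Pdgfa came to 4.94, 4.96 and 5.03, a fall of 0.62 (SE 0.094, adjusted p 0.0125), and overlapped its DMSO libraries. This call was lost without replicate 2 (change -0.54, adjusted p 0.132) and with 5 added (-0.56). Csf1 lay at 8.80, 8.79 and 8.65 with T/S/Z/N, a change of -0.33 (SE 0.086, adjusted p 0.0631) that was not called, and it stayed 2.27 above DMSO (SE 0.061, adjusted p 8.75e-06). Inhba lay at 5.02, 4.93 and 5.13, a change of -0.063 (95% interval -0.30 to 0.17), and stayed 1.93 above DMSO (SE 0.086, adjusted p 6.49e-05).

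Against DMSO, T/S/Z/N astrocytes had 4 members higher (Pdgfb, Csf2, Csf1 and Inhba) and none lower, where 9.08% of all tested genes were called, 4.36% higher and 4.72% lower. The same 4 were those raised by T/S/Z and still raised with Nec-1s, a pattern of 3.91% of all tested genes. Nec-1s took back 9.0% to 14.5% of the Csf1 response in astrocytes and 67.6% to 79.4% in T/S/Z microglia, and these shares come from separate tables and were not tested against each other. Igf1 was 0.58 under DMSO in T/S/Z/N (SE 0.096, adjusted p 0.00813), just short of the fold minimum, and was called lower without replicate 1 (change -0.67). Against T/S/Z, Igf1 changed by 0.40 with Nec-1s (SE 0.096, adjusted p 0.0483) and Hbegf by -0.38 (SE 0.082, adjusted p 0.0374), both in 3 of 3 replicates and short of the fold minimum.

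Receptors for these ligands were counted from a list of 27. In microglia 17 were tested, of which T/5z called 2 higher and 1 lower, where 24.4% of all tested genes were called, and T/S/Z 2 higher and 4 lower, where 29.6% were called. The medians were 0.077 and -0.095. Csf1r, the Csf1 receptor, changed by 0.10 with T/5z (SE 0.044) and by -0.051 with T/S/Z (SE 0.048). Csf3r changed by -0.57 and -0.47 and Csf2rb by 0.23 and -0.27, all short of the fold minimum. Nrp2, a co-receptor of Vegfa, rose by 1.81 with T/5z (SE 0.083, adjusted p 3.83e-06) and 1.43 with T/S/Z (SE 0.055, adjusted p 5.78e-07), and Kdr, the main Vegfa receptor, fell by 0.96 with T/S/Z (SE 0.093, adjusted p 5.52e-05). The 2 endothelial markers listed in the microglial table, of 5, summed to 4.46 to 5.80 FPKM in DMSO, 2.45 to 3.09 FPKM with T/5z and 1.79 to 2.29 FPKM with T/S/Z, and did not move together. Pecam1, the 1 tested, made up most of the sum and was called lower with both stimuli (-0.95 and -1.13). Cdh5, too low to be tested, had a mean of 0.244 FPKM in DMSO, 0.697 FPKM with T/5z and 0.273 FPKM with T/S/Z. The part of endothelial RNA in the Kdr change was not tested. Pdgfra, Pdgfrb and Egfr did not pass the filter on low values in microglia.

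In astrocytes 21 receptors were tested, and T/S/Z called 3 higher and 5 lower, with a median of 0.0095, where 15.4% of all tested genes were called. Pdgfrb fell by 1.49 (SE 0.097, adjusted p 4.46e-05), Pdgfra by 1.00 (SE 0.10, adjusted p 0.000364) and Kdr by 1.68 (SE 0.11, adjusted p 3.99e-05). The falls of Pdgfrb and Pdgfra stood beside the lower fibroblast, mural and oligodendrocyte lineage marker levels given for Igf1, whose part was not tested. Endothelial markers (2 of 5 listed in the table) summed to 12.4 to 12.7 FPKM in DMSO, 2.89 to 3.59 FPKM with T/S/Z and 8.98 to 10.1 FPKM with T/S/Z/N. The 1 tested, Cdh5, fell by 1.74 with T/S/Z and rose by 1.37 with Nec-1s added, where Kdr changed by 0.22 (limma adjusted p 0.184). The part of endothelial RNA in the Kdr change was not tested. Csf1r fell by 0.61 (SE 0.094, adjusted p 0.00257), beside the microglial marker levels given for Igf1, and Pdgfrb rose by 0.75 with Nec-1s added (SE 0.11, adjusted p 0.0118), beside the fibroblast and mural marker levels given there. Igf1r rose by 0.59 (SE 0.10, adjusted p 0.00456) and the activin receptor Acvr1b by 0.63 (SE 0.11, adjusted p 0.00416). Egfr, which binds Hbegf, changed by 0.40 (SE 0.098) and Fgfr1 by -0.10 (SE 0.070).

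Related ligands moved in both directions. In microglia 11 were tested, of which T/S/Z called 5 higher and 3 lower (median 0.47), where 29.6% of all tested genes were called, 12.2% higher and 17.5% lower. Nec-1s then called 5 lower and none higher (median -0.41), where 12.1% were called. Gdf15, a distant member of the TGF-beta family, rose by 5.00 with T/S/Z (SE 0.12, adjusted p 8.65e-08) and 1.78 with T/5z (SE 0.062, adjusted p 1.28e-06), and fell by 4.08 when Nec-1s was added to T/S/Z (SE 0.089, adjusted p 2.36e-07). The EGF receptor ligands Ereg and Areg rose by 2.14 and 1.28 with T/S/Z, and Lif, a cytokine of the interleukin-6 family, by 3.39. Hgf, the ligand of Met, fell by 2.70 with T/5z (SE 0.077, adjusted p 6.7e-07) and 2.05 with T/S/Z (SE 0.069, adjusted p 3.3e-07), and Pdgfc by 0.91 and 1.03.

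In astrocytes 26 related ligands were tested, of which T/S/Z called 8 higher and 4 lower (median 0.16), where 15.4% of all tested genes were called. Nec-1s then called 3 higher and 6 lower (median -0.11), where 3.1% were called. Lif rose by 3.65 (SE 0.071, adjusted p 2.15e-07), Ereg by 2.40 (SE 0.11, adjusted p 8.91e-06) and Il34, the other ligand of Csf1r, by 1.85 (SE 0.10, adjusted p 2.13e-05). Igf2 fell by 2.23 (SE 0.078, adjusted p 2.62e-06) and rose by 1.87 with Nec-1s added (SE 0.088, adjusted p 9.39e-05), beside the fibroblast and mural marker levels above.

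Genes that bind or release growth factors and genes that growth factor signalling induces were also counted. Of 15 tested binding proteins, inhibitors and shedding proteases in microglia, T/S/Z called 5 higher and 1 lower (29.6% of all tested genes) and Nec-1s then called 8 lower and none higher (12.1% of all tested genes). Sdc4, a heparan sulfate proteoglycan that binds growth factors, rose by 2.74 (SE 0.082, adjusted p 2.13e-07). The insulin-like growth factor binding protein Igfbp3 rose by 1.08 (SE 0.10, adjusted p 3.77e-05), and the shedding protease Adam10 fell by 0.70 (SE 0.055, adjusted p 1.81e-05). In astrocytes 2 of 18 were higher and 5 lower with T/S/Z, against 15.4% of all tested genes called, among them Igfbp6, which fell by 1.83 (SE 0.15, adjusted p 0.000126).

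Of 16 tested feedback and target genes in microglia, T/S/Z called 10 higher and 1 lower (median 0.83), beside 29.6% called over all tested genes, and Nec-1s then called 10 lower and none higher (median -0.70), beside 12.1%. Socs3, a feedback inhibitor of cytokine receptors, rose by 4.64 (SE 0.12, adjusted p 1.14e-07), and the ERK phosphatase Dusp4 by 3.84 (SE 0.070, adjusted p 4.32e-08). Spry2, a feedback inhibitor of receptor tyrosine kinases, rose by 1.22 with T/S/Z (SE 0.10, adjusted p 2.25e-05) and fell by 1.94 with Nec-1s (SE 0.069, adjusted p 1.77e-06). In astrocytes 8 of 20 were higher and 1 lower with T/S/Z (median 0.39), beside 15.4% called over all tested genes.

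The genes whose library pattern was most like that of a member were found by Pearson's r after the replicate means had been subtracted, over 24 microglial or 12 astrocyte libraries. These values describe shared libraries and treatments. In microglia they were Fam219a (0.97), Pnp (0.97) and Ptx3 (0.97) for Csf1, Gm13889 (0.96), Rffl (0.94) and Lif (0.94) for Csf2, and Sele (0.94), Rnf125 (0.94) and Lcn2 (0.90) for Csf3. They were Rbpj (0.98), Clec4d (0.97) and Glrx (0.97) for Pdgfb, and Tubb5 was the nearest for both Hbegf (0.96) and Fgf2 (0.94), with Il11 the nearest for Inhba (0.93). In astrocytes the nearest were Tnfaip3 (1.00), Nfkbie (1.00) and Slc43a2 (1.00) for Csf1, Cxcl2 (1.00), Map3k8 (1.00) and Cd14 (1.00) for Csf2, Cxcl1 (1.00) for Pdgfb, Klf10 (1.00) for Inhba and Kiz (0.98) for Igf1.

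Some members share exonic bases with a neighbour in the GENCODE M21 annotation, which can add reads where strand was not used in counting. Pdgfa shares 813 exonic bases with 6330403L08Rik on the opposite strand, whose mean log2 value was 1.91 in microglia and 1.68 in astrocytes. Fgf2 shares 640 of its 6525 exonic bases in the microglial table with Nudt6 on the opposite strand, whose mean over all libraries was 0.99 in microglia and 1.74 in astrocytes, and 255 with Gm43439 on the same strand. Csf2 shares 96 with the antisense gene Gm12223. In microglia, where the library protocol was not stated to keep strand, reads on the bases shared with an opposite-strand gene cannot be told apart.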

How the data were processed

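RNA was extracted from primary microglia (24 libraries) and astrocytes (12 libraries) after 4 h of treatment, enriched for mRNA and sequenced. Reads went through the RNA-seq pipeline of OmicSoft Array Studio, and the authors deposited FPKM as log2 after adding 1, each table normalized on its own. Aligner settings were not given in the sources used here. The deposited annotation gave gene identifiers, exon lengths and coordinates of mouse build GRCm38, and carried an unexplained mark, confounded, on Csf2, Pdgfa, Pdgfb, Fgf2, Igf1 and Inhba.

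Symbols chose the members, and the members and gene lists were chosen with earlier results of these data known. Genes with a log2 value of at least 1 in as many libraries as the smallest group (4 in microglia, 3 in astrocytes) were tested with limma (version 3.58.1, R 4.3.3; lmFit and eBayes with a trend), 2-sided, on the libraries of the groups compared, blocked by replicate number since the study paired its samples. Calls needed a fold change over 1.5 and a Benjamini-Hochberg adjusted p under 0.05 over all tested genes. The script was tested on simulated data. Named genes were the 10 members, up to 6 called genes of each list in a comparison by size of change, the receptors of the members, and the 3 genes most like each member.

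Replicates 1 to 3 of microglia had gene means equal to those of replicate 4 (largest difference 6.7e-05). Depth per library is unknown, since the tables give no counts. In genes with a single transcript, 79.0% to 86.9% of low astrocyte values and 81.9% to 83.5% of those in replicate 4 of microglia lay within 0.1 of a whole read, which gave the approximate reads of Csf2 and Csf3. Whole reads were not recovered for all genes, and no count test was made. Arithmetic used Python 3.11.15 with numpy 2.4.6 and pandas 2.3.3, and figures matplotlib 3.10.9. Alternatives were no replicate block, 5 added before the log, quantile normalization, no filter, a mean log2 value of at least 3, all groups in one fit, unadjusted p, and leaving out each replicate.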

Additional observations from a re-analysis of the deposited data

Results flagged for a closer look

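In groups of 4 microglial libraries, a library was singled out when its gap to the nearest other library was most of the group's range, by Dixon's test at 95%. Of 60 groups checked for the members, 4 were singled out. The nominal rate of about 1 in 20 is for independent values. The shift of replicates 1 to 3 ties the groups of a gene together, so the count is not read against that rate. The Csf2 value of replicate 1 in DMSO, -0.68, lay under the other DMSO libraries (0.00 to 0.13). A value under 0 occurs only in replicates 1 to 3, which were shifted gene by gene to the mean of replicate 4, and replicate 1 also had the highest Csf2 values with T/5z (1.52) and T/S/Z (2.70). The Hbegf value of replicate 4 in T/S/Z/N, 1.69, lay above the others (1.63 to 1.64). The Fgf2 value of replicate 4 in T/5z, 0.63, lay under the others (0.82 to 0.84), and the Igf1 value of replicate 4 in DMSO, 8.56, lay above the others (8.38 to 8.41).

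The effect of Nec-1s in microglia differed between T/S/Z and T/5z for 3 members, by the interaction test in limma. The change with Nec-1s was more negative after T/S/Z by 1.20 for Pdgfb, by 0.76 for Hbegf and by 0.59 for Igf1, on the log2 scale. The values without single replicates are given with that test.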

How the results depend on the processing

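Of 58 member calls, 33 held under each alternative in which they were tested and 25 were lost under at least 1. A mean log2 of at least 3 tested only 20 of the 58, and leaving out replicate 4 concerns microglia alone. Of the 25, 24 were lost with 5 added before the log. The members called then numbered 3 for T/5z against DMSO, 1 for T/5z/N against T/5z, 4 for T/S/Z/N against T/S/Z, 3 for T/5z/N against DMSO, 3 for T/S/Z against T/5z, 1 for the interaction and 2 for Nec-1s in T/S/Z astrocytes. With the filter set at a mean log2 of 3, which tests fewer members, the counts were 1, 0, 1, 1 and 2 for the first 5 of these comparisons, 2 for Nec-1s in T/S/Z astrocytes, 2 for T/S/Z and 1 for T/S/Z/N against DMSO in microglia. The median change over the tested members went with 5 added and the mean filter from -0.021 to 0.045 and 0.21 (T/5z), from -0.29 to -0.12 and 0.24 (T/5z/N against DMSO), from -0.69 to -0.22 and -0.029 (T/5z/N against T/5z), from -0.95 to -0.51 and -0.55 (T/S/Z/N against T/S/Z) and from 0.87 to 0.52 and 0.66 (T/S/Z microglia), and in astrocytes from 1.00 to 0.62 and 0.67 (T/S/Z) and from -0.36 to -0.32 and -0.19 (T/S/Z/N against T/S/Z). Leaving out a replicate gave 3 to 5 members for T/5z against DMSO, 3 to 6 for T/5z/N against T/5z and 1 to 3 for the interaction. Calls over all genes with 5 added and with a mean of at least 3 were 1485 and 1463 of 2563 (T/5z), 1633 and 1705 of 3118 (T/S/Z), 314 and 385 of 754 (T/5z/N against T/5z), 514 and 628 of 1270 (T/S/Z/N against T/S/Z), 809 and 851 of 1352 (T/5z/N against DMSO), 861 and 915 of 1481 (T/S/Z/N against DMSO), 611 and 652 of 1035 (T/S/Z against T/5z) and 396 and 426 of 681 (interaction). In astrocytes they were 985 and 1094 of 2130 (T/S/Z), 180 and 225 of 429 (T/S/Z/N against T/S/Z) and 542 and 639 of 1257 (T/S/Z/N against DMSO). Nec-1s in T/S/Z astrocytes gave 274 without replicate 2 and 761 without replicate 3, and Nec-1s alone gave 0 to 43 in place of 2. The share of higher calls went from 41.1% to 54.1% (T/S/Z microglia, 5 added; 52.3% with the mean filter), from 45.5% to 51.8% and 52.4% (T/5z) and from 47.9% to 53.8% and 57.0% (T/5z/N against DMSO) at the same settings, from 36.9% to 25.5% and 44.3% to 21.2% (T/5z/N against T/5z, then T/S/Z/N against T/S/Z, 5 added), from 44.1% to 54.6% (T/S/Z/N against DMSO in microglia, mean filter), and in astrocytes from 41.5% to 52.1% with quantile normalization and 57.6% with 5 added (T/S/Z) and from 48.1% to 59.1% and 70.5% (T/S/Z/N against DMSO).

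Without the replicate block all 58 calls held and 1 was gained, the Csf2 interaction (1.02, adjusted p 0.0491), and the T/5z count over all genes was 2566. In microglia the shift had already made the replicate means over all treatments equal. Dropping the block could therefore change little there, and the microglial calls that held say little on this setting. In astrocytes the same-numbered libraries had a median correlation of deviations of 0.041, 5 of 18 pairs were over 0.1 and 6 of 12 libraries correlated best with their own number, so they share a number and the pairing rests on the study's test. In microglia the shift of replicates 1 to 3 sets these correlations (median -0.25), so they say nothing on pairing there.

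Changes that turned sign were all uncalled. With quantile normalization Igf1 gave -0.024 (T/5z against DMSO) and -0.025 (T/S/Z/N against DMSO) in microglia. With 5 added, Csf3 between the stimuli gave -0.0081 and the interaction gave -0.10 for Csf1 and 0.095 for Inhba. Leaving out a replicate turned 31 values, and the ranges were -0.084 to 0.00 for Pdgfa and -0.013 to 0.067 for Igf1 in microglia T/5z/N against T/5z. They were -0.11 to 0.040 for Csf2 and -0.018 to 0.053 for Csf3 in microglia T/5z/N against DMSO. They were -0.083 to 0.00 for Csf3 and -0.042 to 0.14 for Inhba in microglia T/S/Z/N against DMSO. They were -0.14 to 0.0017 for Csf2, -0.083 to 0.017 for Csf3, -0.061 to 0.034 for Pdgfa, -0.064 to 0.078 for Pdgfb and -0.047 to 0.070 for Inhba in microglia Nec-1s against DMSO. They were -0.077 to 0.10 for Csf3 in microglia T/S/Z against T/5z. They were -0.22 to 0.29 for Csf1 and -0.57 to 0.12 for Inhba in microglia interaction of Nec-1s with stimulus. They were -0.34 to 0.031 for Vegfa in astrocytes T/S/Z against DMSO. They were -0.081 to 0.090 for Fgf2 and -0.15 to 0.050 for Inhba in astrocytes T/S/Z/N against T/S/Z. They were -0.25 to 0.068 for Vegfa in astrocytes T/S/Z/N against DMSO. They were -0.073 to 0.039 for Csf2, -0.022 to 0.044 for Csf3, -0.10 to 0.13 for Pdgfa, -0.082 to 0.17 for Pdgfb, -0.12 to 0.29 for Vegfa, -0.12 to 0.052 for Fgf2 and -0.032 to 0.15 for Inhba in astrocytes Nec-1s against DMSO.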
